A study of Saccharomyces cerevisiae and Saccharomyces cerevisiae x Saccharomyces paradoxus with 20 samples.

Results

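The iron regulon of yeast was followed across the study through 10 genes. They were chosen by name, without a rule on measured values, though earlier results of these data were known. The genes were FET3 (YMR058W), FTR1 (YER145C), FRE1 (YLR214W), FIT2 (YOR382W), FIT3 (YOR383C), ARN1 (YHL040C), SIT1 (YEL065W), AFT1 (YGL071W), AFT2 (YPL202C) and CTH2 (YLR136C), which is listed as TIS11 in the reference annotation. Of these 10 genes, 7 were among the 4995 genes of the RNA tables of the UWOPS05_217_3 cross, and FIT3, AFT1 and CTH2 were not analysed here for RNA. Nucleosome-free regions (NFRs), the open stretches of chromatin that FAIRE-Seq isolates, were assigned to a gene where they overlapped the 300 bp upstream of its start codon by at least 1 bp. This gave 7 of the 3498 NFRs in the tables, 1 each for FTR1, FRE1, FIT3, ARN1, SIT1, AFT2 and CTH2, and none for FET3, FIT2 and AFT1. RNA counts and an NFR were both at hand for 5 genes, FTR1, FRE1, ARN1, SIT1 and AFT2.

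The study set chromatin accessibility and RNA levels in diploid F1 hybrids beside those of their haploid parents, to separate differences that stay with the allele (cis) from those that depend on the cellular background (trans). The hybrids were UWOPS05_217_3-CBS432 and DBVPG1373-CBS432, and the haploids were UWOPS05_217_3 and DBVPG1373 of Saccharomyces cerevisiae and CBS432 of its close relative Saccharomyces paradoxus. All were grown to mid-log phase in YEPD, a rich glucose medium, with 2 biological replicates per strain or hybrid and assay, 20 samples in all. RNA results below come from UWOPS05_217_3, CBS432 and their hybrid only, since the RNA tables of DBVPG1373 and its hybrid were not used, so strain and species cannot be told apart in them, and a hybrid also differed from its parents in ploidy. The sample labels give S. cerevisiae for CBS432, which was treated here as S. paradoxus, as the study describes it.

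Yeast takes up iron by reducing ferric iron at the cell surface and importing it through a ferroxidase and permease complex, or by importing siderophores, iron-binding molecules made by other microbes. When iron is scarce, the transcription factors Aft1 and Aft2 enter the nucleus and activate the genes of both routes, while the RNA-binding protein Cth2 promotes decay of messages that encode iron-using proteins. FET3 encodes the multicopper ferroxidase and FTR1 the permease of the high-affinity complex, FRE1 encodes a cell-surface ferric and cupric reductase, FIT2 and FIT3 encode cell wall mannoproteins that help retain siderophore iron, and ARN1 and SIT1 encode siderophore transporters, for ferrichrome-type siderophores and ferrioxamine B.

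Summed RNA counts were between 51389633 and 106845771 for the 4 haploid libraries and between 36188856 and 54971715 for the 4 hybrid allele columns, and summed FAIRE counts were between 1339393 and 4198250. The counts appear to have been summed over sites that differ between the species, in which case 1 read may have contributed a count at each such site it spans, and intervals from counting error alone would then be too narrow. Values below are CPM, the count scaled to a library total of 1e+06, where both alleles of a hybrid library were divided by the mean of its 2 allele totals. Differences are log2 values with their standard errors (SE) from edgeR's quasi-likelihood test, and p-values were adjusted over all genes or all NFRs by the Benjamini-Hochberg method, with 0.05 as the threshold.

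The genes of the high-affinity complex were the most abundant of the 7 and FIT2 was the least abundant in 3 of the 4 groups of libraries. Per kilobase of gene, FTR1 stood at 423 ± 37.7 CPM for the UWOPS05_217_3 allele and 397 ± 13.8 CPM for the CBS432 allele of the hybrid, against 517 ± 14.5 CPM in UWOPS05_217_3 haploids and 493 ± 105 CPM in CBS432 haploids (SD, n = 2 each), between the 91.2 and 94.8 percentiles of all genes. FET3 lay between the 73.0 and 93.8 percentiles. FIT2 had 2.60 ± 1.21 CPM per kilobase for the UWOPS05_217_3 allele and 6.83 ± 5.08 for the CBS432 allele of the hybrid, against 8.40 ± 2.78 in UWOPS05_217_3 haploids and 87.2 ± 92.0 in CBS432 haploids (SD, n = 2 each). The levels of FET3 and FTR1 did not differ beyond their spread in CBS432 haploids, whereas in UWOPS05_217_3 haploids the FTR1 level was above that of FET3 in both libraries. The number of counted sites per gene was not used here and may affect the order of genes on this scale.

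Between the haploids, 4 of the 7 genes had less RNA in UWOPS05_217_3 than in CBS432, the siderophore transporter SIT1, the mannoprotein FIT2, the reductase FRE1 and the ferroxidase FET3, and none was higher in UWOPS05_217_3. In this comparison 54.6% of all genes passed the threshold in either direction, 26.4% lower and 28.2% higher in UWOPS05_217_3. The median log2 difference of the 7 genes was -1.21, against 0.01 for all genes. None of the 7 was higher in UWOPS05_217_3 at an unadjusted p under 0.05 in edgeR either, nor after adjustment in DESeq2.

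SIT1 had 24.7 and 35.4 CPM in UWOPS05_217_3 haploids, against 150 and 424 CPM in CBS432 haploids. Every UWOPS05_217_3 library was below every CBS432 library, and the difference was 9.68-fold (log2 difference -3.27 ± 0.44 SE, adjusted p = 0.00052 in edgeR). FIT2 had 2.97 and 4.79 CPM in UWOPS05_217_3 haploids, against 10.2 and 70.4 CPM in CBS432 haploids. Both groups stood apart, with a wide gap between the 2 CBS432 libraries, and the log2 difference was -3.40 ± 0.76 SE (adjusted p = 0.00597 in edgeR). FRE1 had 157 and 152 CPM in UWOPS05_217_3 haploids, against 288 and 868 CPM in CBS432 haploids. Here too the groups did not overlap, and the log2 difference was -1.93 ± 0.41 SE (adjusted p = 0.00499 in edgeR). FET3 had 456 and 379 CPM in UWOPS05_217_3 haploids, against 793 and 1106 CPM in CBS432 haploids, a log2 difference of -1.21 ± 0.17 SE (adjusted p = 0.000647 in edgeR). Between the 2 CBS432 libraries FET3 differed less than the other 3 genes, whereas between the 2 UWOPS05_217_3 libraries FRE1 differed least.

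The remaining 3 genes did not pass the threshold, and for ARN1 this depended on the setting. ARN1 had 48.8 and 58.5 CPM in UWOPS05_217_3 haploids, against 58.2 and 131 CPM in CBS432 haploids, so that the groups overlapped (log2 difference -0.84 ± 0.32 SE, adjusted p = 0.0517 in edgeR). With all libraries ARN1 passed in edgeR with RLE size factors (adjusted p = 0.0479), with total counts (0.0406) and among genes averaging 100 counts (0.0490), but not in DESeq2. FTR1, the permease partner of FET3, had 641 and 616 CPM in UWOPS05_217_3 haploids, against 508 and 689 CPM in CBS432 haploids (log2 difference 0.05 ± 0.15 SE). AFT2 encodes, beside AFT1, a regulator of this regulon, and AFT1 was not analysed here for RNA. AFT2 had 133 and 105 CPM in UWOPS05_217_3 haploids, against 100 and 97.6 CPM in CBS432 haploids (log2 difference 0.25 ± 0.12 SE). Sizes depended on CBS432 replicate 2, the highest haploid library for FRE1, FIT2, ARN1, SIT1, FET3 and FTR1, though not for AFT2. Without it SIT1, FIT2, FRE1 and FET3 were still called lower, by smaller log2 differences of -2.32, -1.39, -0.90 and -0.93, and that of ARN1 was -0.12. ARN1 was called without CBS432 replicate 1 (log2 difference -1.33) or without UWOPS05_217_3 replicate 2 (adjusted p = 0.0264 in edgeR), and leaving out UWOPS05_217_3 replicate 2 also brought AFT2 past the threshold (log2 difference 0.39).

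**Figure D1:**
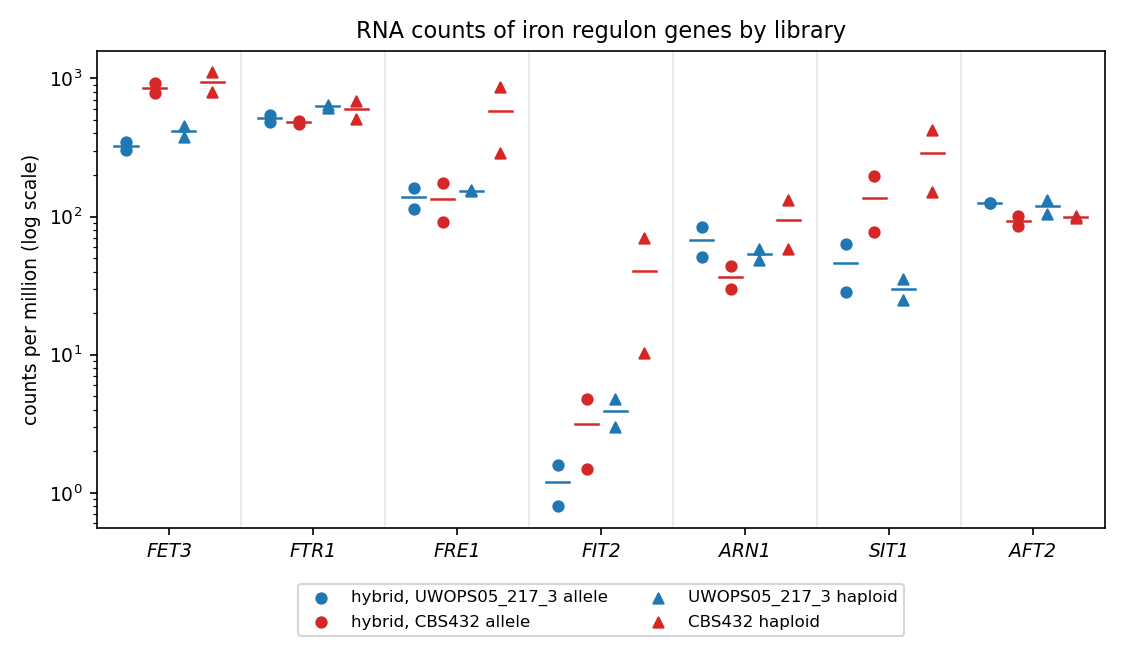
RNA level of the 7 iron regulon genes in each library, in CPM on a log scale, with horizontal bars at the mean of the 2 libraries. Red triangles (CBS432 haploids) lie above blue triangles (UWOPS05_217_3 haploids) for SIT1, FIT2, FRE1 and FET3, whereas the red and blue circles (alleles of the hybrid) of FRE1 overlap.

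Within the hybrid, where both alleles share a nucleus, the 7 genes split. Of these, 6 passed the threshold, a share near that of all genes (68.6%), with 3 higher and 3 lower from the UWOPS05_217_3 allele, where 31.8% of all genes were higher and 36.7% lower. FET3, SIT1 and FIT2 kept the direction seen in the haploids, ARN1 and AFT2 were higher from the UWOPS05_217_3 allele, and FTR1 and FRE1 were close to equal. The median log2 difference was 0.09 for the 7 genes and -0.03 for all genes. A fit over 2 libraries leaves 1 degree of freedom per gene, so the spread was mostly borrowed from other genes.

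FET3 had 302 and 347 CPM from the UWOPS05_217_3 allele, against 790 and 924 CPM from the CBS432 allele, which was higher in both libraries (log2 difference -1.40 ± 0.04 SE, adjusted p = 4.94e-79 in edgeR). SIT1 had 28.4 and 63.8 CPM from the UWOPS05_217_3 allele, against 77.7 and 196 CPM from the CBS432 allele. The CBS432 allele was higher in each library, although total SIT1 differed widely between the libraries, and the UWOPS05_217_3 allele took 26.8% and 24.6% of the SIT1 counts (log2 difference -1.54 ± 0.08 SE, adjusted p = 3.47e-38 in edgeR). ARN1 went the other way, with 51.0 and 84.3 CPM from the UWOPS05_217_3 allele, against 29.7 and 43.6 CPM from the CBS432 allele. The UWOPS05_217_3 allele supplied 63.1% and 65.9% of the ARN1 counts (log2 difference 0.86 ± 0.11 SE, adjusted p = 7.42e-13 in edgeR).

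FIT2 was the rarest message, with 44 and 58 counts from the UWOPS05_217_3 allele, against 82 and 175 counts from the CBS432 allele. Its CBS432 allele was higher in both libraries (log2 difference -1.26 ± 0.53 SE, adjusted p = 0.0287 in edgeR), but the adjusted p was 0.0800 in DESeq2. AFT2 had 126 and 126 CPM from the UWOPS05_217_3 allele, against 100 and 85.5 CPM from the CBS432 allele (log2 difference 0.44 ± 0.07 SE, adjusted p = 6.47e-08 in edgeR). FTR1 had 481 and 546 CPM from the UWOPS05_217_3 allele, against 471 and 495 CPM from the CBS432 allele. That difference was small (log2 0.09 ± 0.04 SE), with an adjusted p of 0.0333 in edgeR and 0.135 in DESeq2. FRE1 had 114 and 161 CPM from the UWOPS05_217_3 allele, against 91.6 and 175 CPM from the CBS432 allele. Which FRE1 allele was higher differed between the 2 libraries, and the log2 difference was 0.10 ± 0.07 SE.

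For the reductase FRE1 and the siderophore transporters ARN1 and SIT1, the difference between species was not the same in the haploids as in the hybrid. The trans effect stands for the log2 ratio of UWOPS05_217_3 to CBS432 in the haploids minus the same ratio of alleles in the hybrid. A negative value means that CBS432 was relatively higher in the haploids. The effect came from a joint fit, with haploids scaled by total counts and paired by replicate number. The effect therefore need not equal the difference of the separately fitted ratios. It was -1.80 ± 0.41 SE for FRE1 (adjusted p = 0.0123), -1.58 ± 0.25 SE for ARN1 (adjusted p = 0.00253) and -1.57 ± 0.25 SE for SIT1 (adjusted p = 0.00287), all from edgeR. These 3 of 7 genes compare with 25.9% of all genes in either direction, 10.6% with a negative and 15.3% with a positive effect, and no iron gene had a positive effect, at an unadjusted p under 0.05 in edgeR or in DESeq2 either. The median over the 7 genes was -1.57, against 0.07 over all genes.

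The log2 value of FIT2 was alike in size, -1.60 ± 0.65 SE, but did not pass (adjusted p = 0.102 in edgeR). Its separately fitted log2 ratios were -3.40 in the haploids and -1.26 in the hybrid. The trans effects of FET3 (0.23 ± 0.19 SE), FTR1 (-0.00097 ± 0.14 SE) and AFT2 (-0.19 ± 0.13 SE) also did not pass. For FET3 the haploid log2 ratio of -1.21 and the hybrid log2 ratio of -1.40 thus lay close together, whereas FRE1 had -1.93 in the haploids and 0.10 in the hybrid. ARN1 had ratios of opposite sign, -0.84 in the haploids and 0.86 in the hybrid. Calls for 2 of the 3 genes depended on the method, since FRE1 had an adjusted p of 0.0805 in DESeq2, and SIT1 had 0.0547 in edgeR when haploid libraries were not paired by replicate number. Without CBS432 haploid replicate 2, the effects were smaller, -0.97 for FRE1, -1.12 for ARN1 and -1.06 for SIT1, and without CBS432 haploid replicate 1 they were -2.61, -2.03 and -2.05, and FIT2 then passed too (-2.60). With only 1 pair of haploid libraries left, whose spread is taken from the hybrid, FET3 and FTR1 passed in opposite directions, at 0.60 and 0.25 without CBS432 replicate 2 and at -0.15 and -0.25 without CBS432 replicate 1, where AFT2 passed as well (-0.34).

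**Figure D2:**
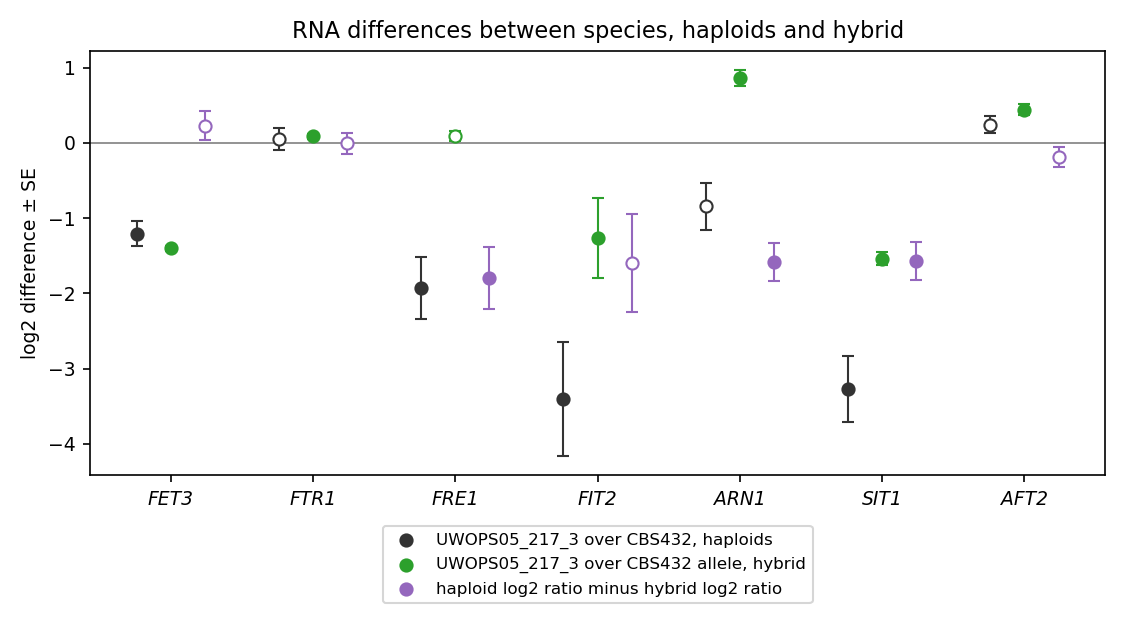
Log2 differences ± SE of RNA for the 7 genes between haploids (black), between alleles of the hybrid (green) and for the trans effect (purple), with filled points for an adjusted p under 0.05. FET3 has nearly the same value in haploids and hybrid, whereas FRE1, ARN1 and SIT1 have trans effects of -1.80, -1.58 and -1.57.

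Each allele in the hybrid was also set against its own haploid parent. The CBS432 alleles of FIT2, FRE1 and ARN1 were lower in the hybrid than in CBS432 haploids, 3 of 7 genes, where 7.31% of all genes passed in either direction, 4.99% lower and 2.32% higher. FIT2 had 1.497 and 4.81 CPM from the hybrid's CBS432 allele, against 10.2 and 70.4 CPM in CBS432 haploids (log2 difference -3.72 ± 0.84 SE, adjusted p = 0.0319 in edgeR). FRE1 had 91.6 and 175 CPM, against 288 and 868 CPM (log2 difference -2.11 ± 0.46 SE, adjusted p = 0.0268 in edgeR). ARN1 had 29.7 and 43.6 CPM, against 58.2 and 131 CPM (log2 difference -1.37 ± 0.33 SE, adjusted p = 0.0412 in edgeR). Hybrid and haploid libraries did not overlap for these 3 genes. SIT1 had 77.7 and 196 CPM from the hybrid's CBS432 allele, against 150 and 424 CPM in CBS432 haploids, and here the groups overlapped (log2 difference -1.06 ± 0.48 SE, adjusted p = 0.256 in edgeR). No CBS432 allele of the 7 genes was higher in the hybrid, in edgeR at an unadjusted p under 0.05 or in DESeq2.

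These 3 calls rested on CBS432 haploid replicate 2. Without it none passed, with log2 differences of -1.69 for FIT2, -1.09 for FRE1 and -0.65 for ARN1. In DESeq2 with all libraries only FIT2 passed, with adjusted p-values of 0.0990 for FRE1 and 0.170 for ARN1, and without hybrid replicate 1 ARN1 did not pass (adjusted p = 0.0591 in edgeR). Leaving out CBS432 haploid replicate 1 brought FTR1 past the threshold (log2 difference -0.52), and leaving out hybrid replicate 2 brought SIT1 past it (-1.90).

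Among the UWOPS05_217_3 alleles, FIT2 alone passed the threshold, where 22.7% of all genes did, 11.3% lower and 11.4% higher in the hybrid, with 0.803 and 1.60 CPM in the hybrid against 2.97 and 4.79 CPM in UWOPS05_217_3 haploids (log2 difference -1.64 ± 0.45 SE, adjusted p = 0.0311 in edgeR). That call was lost without hybrid replicate 1 (log2 difference -1.19) or without UWOPS05_217_3 haploid replicate 2 (-1.23). FRE1 had 114 and 161 CPM in the hybrid against 157 and 152 CPM in the haploids, a log2 difference of -0.08 ± 0.15 SE. SIT1 had 28.4 and 63.8 CPM in the hybrid against 24.7 and 35.4 CPM in the haploids (log2 difference 0.70 ± 0.34 SE, adjusted p = 0.166 in edgeR), and ARN1 had 51.0 and 84.3 CPM against 48.8 and 58.5 CPM (0.42 ± 0.22 SE, adjusted p = 0.202 in edgeR). Without hybrid replicate 1, SIT1 (log2 difference 1.18) and ARN1 (0.75) passed the threshold, and without hybrid replicate 2 their values were -0.01 and -0.0013. Leaving out UWOPS05_217_3 haploid replicate 1 added AFT2 (log2 difference 0.34), and leaving out replicate 2 added FET3 (-0.39). With all libraries and no pairing of replicates, no UWOPS05_217_3 allele of the 7 genes was higher in the hybrid, in edgeR at an unadjusted p under 0.05 or in DESeq2.

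The siderophore genes, FRE1 and FIT2 were among the least repeatable genes in the CBS432 and hybrid data. The ratio of replicate 2 to replicate 1 was taken for the 4938 genes whose counts averaged 100 or more. Between the CBS432 haploid libraries, CPM in replicate 2 was 6.61-fold that in replicate 1 for FIT2, 3.01-fold for FRE1, 2.82-fold for SIT1 and 2.24-fold for ARN1, and only 1, 5, 7 and 11 genes had a higher ratio. The 5th and 95th percentiles of all genes were log2 values of -0.33 and 0.25, and 0.527% of genes differed by over 2-fold in either direction. Between the hybrid libraries, the log2 ratio was 1.33 for the CBS432 allele and 1.16 for the UWOPS05_217_3 allele of SIT1, and 0.93 and 0.50 for those of FRE1. Between the UWOPS05_217_3 haploid libraries FRE1 had a log2 ratio of -0.05, inside the range of most genes, whereas FIT2 (0.61) and SIT1 (0.51) were above the 95th percentile of 0.33. AFT2 had log2 ratios of 0.00013 for the UWOPS05_217_3 allele and -0.23 for the CBS432 allele of the hybrid, -0.34 in UWOPS05_217_3 haploids, just under the 5th percentile of -0.33, and -0.04 in CBS432 haploids. FET3 and FTR1 were outside the range of most genes only in CBS432 haploids, at 0.48 and 0.44. What distinguished the cultures was not tested, and the labels record no difference in medium or growth phase between replicates.

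**Figure D3:**
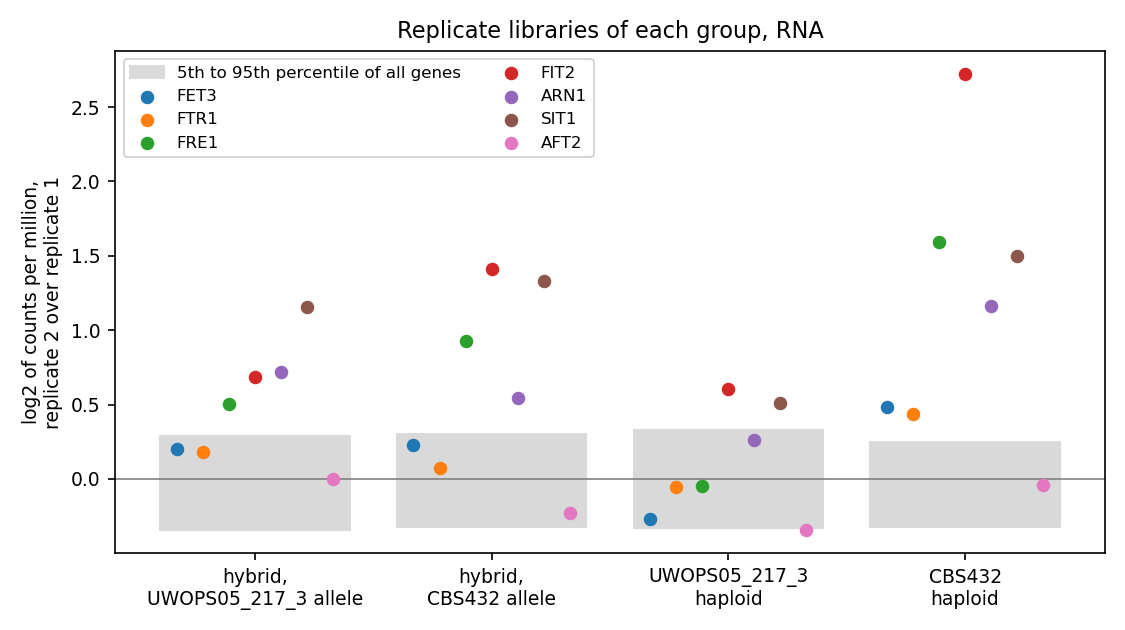
Log2 ratio of CPM in replicate 2 over replicate 1 for each gene in each group of RNA libraries, with grey bands for the 5th to 95th percentile of all genes. FIT2, FRE1, SIT1 and ARN1 stand above the band in CBS432 haploids and for both alleles of the hybrid, and AFT2 never does.

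The NFRs of these genes differed widely in size and in FAIRE signal. In R64 (sacCer3) coordinates as deposited, FET3 (chrXIII:388822-390732) and FIT2 (chrXV:1059531-1059992) had no assigned NFR, the FTR1 gene is at chrV:460526-461740 and its NFR at chrV:461778-462366, a 588 bp region that is also upstream of LSM5. FRE1 (chrXII:568567-570627) had an NFR at chrXII:568272-568414, ARN1 (chrVIII:19088-20971) at chrVIII:20971-21267, FIT3 (chrXV:1060441-1061055) at chrXV:1061122-1061180 and SIT1 (chrV:27657-29543) at chrV:27421-27481. The last 2 were only 58 and 60 bp wide, and none of the 4 regions overlapped the 300 bp upstream of another gene. Genes starting further away were not considered here. The region of ARN1 started at the edge of the coding sequence. The 652 bp NFR of AFT2 (gene at chrXVI:168088-169338) at chrXVI:169213-169865 reached into the coding sequence. The NFR assigned to CTH2 (gene at chrXII:415801-416658) at chrXII:416615-416668 lay mostly inside the gene and overlapped the upstream window by 10 bp. By mean signal in the 6 haploid libraries, the NFRs of FTR1 and AFT2 were at the 96.3 and 94.2 percentiles of all NFRs and that of ARN1 at the 74.9 percentile, whereas those of FRE1, FIT3, SIT1 and CTH2 were at the 13.5 percentile or below.

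The SIT1 NFR had a higher FAIRE signal in both S. cerevisiae strains than in CBS432, in haploids and in hybrids. It had 43.0 and 41.0 CPM in UWOPS05_217_3 haploids and 90.7 and 53.1 CPM in DBVPG1373 haploids, against 10.5 and 8.89 CPM in CBS432 haploids. The log2 difference from CBS432 was 2.14 ± 0.58 SE for UWOPS05_217_3 (adjusted p = 0.0111 in edgeR) and 2.93 ± 0.63 SE for DBVPG1373 (adjusted p = 0.013 in edgeR), 2 comparisons that share the CBS432 libraries. Within the hybrids, the 2 alleles had 104 and 48 counts from UWOPS05_217_3 against 16 and 5 counts from CBS432, and 82 and 152 counts from DBVPG1373 against 18 and 42 counts from CBS432. The S. cerevisiae allele was higher in all 4 hybrid libraries, with log2 differences of 2.92 ± 0.68 SE (adjusted p = 0.000288 in edgeR) and 2.00 ± 0.49 SE (adjusted p = 0.0124 in edgeR). At these low counts the haploid calls were fragile. That for UWOPS05_217_3 was lost without its replicate 2 (adjusted p = 0.0727 in edgeR), and that for DBVPG1373 without either CBS432 replicate (adjusted p = 0.0737 and 0.0524 in edgeR).

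The ARN1 NFR went the other way, with the higher signal in CBS432. It had 108 and 148 CPM in UWOPS05_217_3 haploids and 175 and 209 CPM in DBVPG1373 haploids, against 420 and 697 CPM in CBS432 haploids at the sites counted for UWOPS05_217_3 and 406 and 670 CPM at those counted for DBVPG1373, where every CBS432 library was above every S. cerevisiae library. The log2 difference from CBS432 was -2.11 ± 0.34 SE for UWOPS05_217_3 (adjusted p = 0.000173 in edgeR) and -1.42 ± 0.37 SE for DBVPG1373 (adjusted p = 0.0312 in edgeR), and the second was not called without CBS432 replicate 2 (-0.91). In the hybrids the UWOPS05_217_3 allele had 146 and 188 CPM against 261 and 450 CPM for CBS432 (log2 difference -1.05 ± 0.31 SE, adjusted p = 0.00594 in edgeR), and the DBVPG1373 allele had 101 and 261 CPM against 243 and 444 CPM for CBS432 (-1.01 ± 0.25 SE, adjusted p = 0.0128 in edgeR). The CBS432 allele was higher in each of the 4 hybrid libraries.

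In haploids, SIT1 and ARN1 were the only 2 of 7 NFRs past the threshold in either strain, SIT1 higher and ARN1 lower than in CBS432. Among all NFRs, 20.4% passed for UWOPS05_217_3 (10.8% higher, 9.58% lower) and 8.23% for DBVPG1373 (4.26% higher, 3.97% lower). In the hybrids 3 of 7 passed with UWOPS05_217_3, 1 higher and 2 lower from its allele, where 24.8% of all NFRs passed, 15.1% higher and 9.69% lower. With DBVPG1373 4 of 7 passed, 2 higher and 2 lower, where 29.8% of all NFRs did, 17.5% higher and 12.3% lower. These included the NFR of FTR1 in both. FTR1 had 558 and 1107 CPM from the UWOPS05_217_3 allele against 1234 and 2443 CPM from CBS432 (log2 difference -1.14 ± 0.19 SE, adjusted p = 2.54e-07 in edgeR), and 783 and 614 CPM from the DBVPG1373 allele against 1494 and 1525 CPM from CBS432 (-1.12 ± 0.15 SE, adjusted p = 0.000515 in edgeR). In every hybrid library the CBS432 allele was higher, and the S. cerevisiae allele took between 28.7% and 34.4% of the FTR1 counts. The haploid log2 differences for FTR1 were -0.90 ± 0.38 SE for UWOPS05_217_3 and -0.99 ± 0.45 SE for DBVPG1373 and did not pass the threshold in edgeR (adjusted p = 0.099 and 0.181), though the first passed in DESeq2 (adjusted p = 0.0441).

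FIT3 was called in the DBVPG1373-CBS432 hybrid, with 86.5 and 117 CPM from the DBVPG1373 allele against 35.1 and 24.9 CPM from CBS432 (log2 difference 1.76 ± 0.44 SE, adjusted p = 0.0128 in edgeR). The UWOPS05_217_3 allele had 38.3 and 83.8 CPM against 20.7 and 22.4 CPM for CBS432, higher in both libraries but short of the threshold (1.40 ± 0.58 SE, adjusted p = 0.0621 in edgeR). In haploids, FIT3 had 27.4 and 68.6 CPM in UWOPS05_217_3 and 79.8 and 120 CPM in DBVPG1373, against 34.8 and 33.3 CPM in CBS432, and the 2 log2 differences were 0.55 ± 0.55 SE and 1.65 ± 0.53 SE, neither past the threshold in edgeR. The second passed in DESeq2 (adjusted p = 0.0159) and without DBVPG1373 replicate 1 (log2 difference 2.01). FRE1 had log2 differences from CBS432 between 0.71 and 1.19 in both strains and both hybrids, and AFT2 between -0.64 and 0.13, and with all libraries and no pairing of replicates none of these passed the threshold in edgeR or DESeq2. FRE1 passed between UWOPS05_217_3 and CBS432 haploids without CBS432 replicate 2 (log2 difference 1.79), and FTR1 between DBVPG1373 and CBS432 without DBVPG1373 replicate 2 (-1.56).

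The region assigned to CTH2 held 1 odd value, 170 counts from the CBS432 allele in replicate 1 of the UWOPS05_217_3-CBS432 hybrid against 5 counts in replicate 2, where all other libraries held between 3 and 88 counts. It was not called in any comparison above. It passed the threshold in 3 fits that left a library out, the haploid comparison of UWOPS05_217_3 without CBS432 replicate 2, that of DBVPG1373 without its replicate 2 and the trans effect in the UWOPS05_217_3 cross without hybrid replicate 2.

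**Figure D4:**
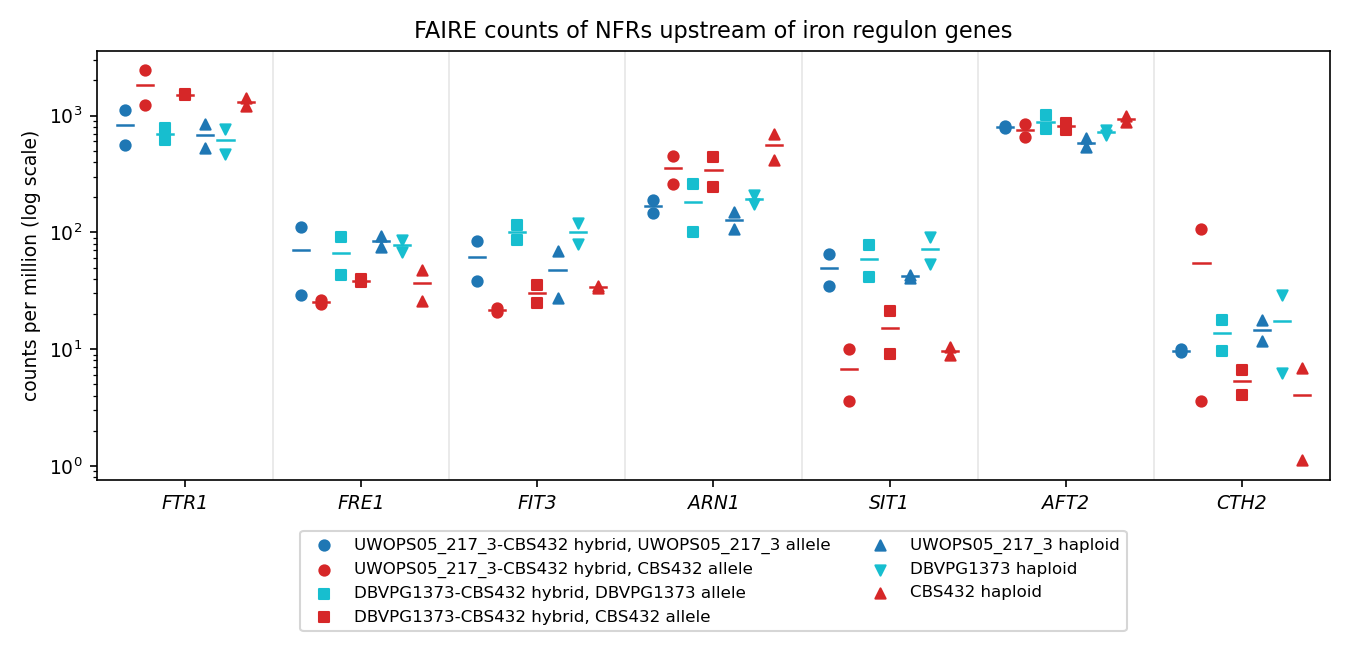
FAIRE signal of the 7 NFRs in each library, in CPM on a log scale, with bars at the mean of 2 libraries, CBS432 haploids counted at the sites used for UWOPS05_217_3. For SIT1 the red points (CBS432) lie below the blue and cyan points (S. cerevisiae) and for ARN1 and FTR1 they mostly lie above them, and CTH2 holds the 1 high value of the CBS432 allele.

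The NFRs of the 2 S. cerevisiae strains were not told apart at this depth. None of the 7 passed the threshold between UWOPS05_217_3 and DBVPG1373 in edgeR, at an unadjusted p under 0.05 or in DESeq2, where 0.114% of all NFRs were called. The largest log2 differences were -1.11 ± 0.57 SE for FIT3, -0.80 ± 0.42 SE for SIT1 and -0.65 ± 0.36 SE for ARN1, all with DBVPG1373 higher. Trans effects on the 7 NFRs also did not pass in edgeR or in DESeq2, in the UWOPS05_217_3 cross (0.0572% of all NFRs called) or in the DBVPG1373 cross (0% of all NFRs called). At an unadjusted p under 0.05 in edgeR there were 3 in the first cross, ARN1 (log2 value -1.05 ± 0.38 SE), AFT2 (-0.75 ± 0.31 SE) and CTH2, and 0 in the second, where ARN1 had -0.44 ± 0.37 SE and AFT2 -0.48 ± 0.27 SE. Over all NFRs the median of these values was -0.10 and -0.16 in the 2 crosses.

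Set side by side, the siderophore transporter genes had FAIRE and RNA differences of opposite sign between alleles of 1 nucleus. In the UWOPS05_217_3-CBS432 hybrid, the UWOPS05_217_3 allele of SIT1 had more FAIRE signal (log2 FAIRE difference 2.92) and less RNA (log2 RNA difference -1.54). That of ARN1 had less FAIRE signal (-1.05) and more RNA (0.86), and that of FTR1 had less FAIRE signal (-1.14) and nearly equal RNA (0.09). FRE1 (1.19 for FAIRE and 0.10 for RNA) and AFT2 (0.08 and 0.44) had the same sign in both assays. Of these values only the RNA difference of AFT2 passed the threshold. The FAIRE value of SIT1 rested on 16 and 5 counts from the CBS432 allele. In haploids the signs for SIT1 were the same as in the hybrid (2.14 for FAIRE and -3.27 for RNA), whereas ARN1 had the lower FAIRE signal (-2.11) and an RNA difference of -0.84 that did not pass the threshold. With 5 genes no relation between the 2 assays was computed.

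**Figure D5:**
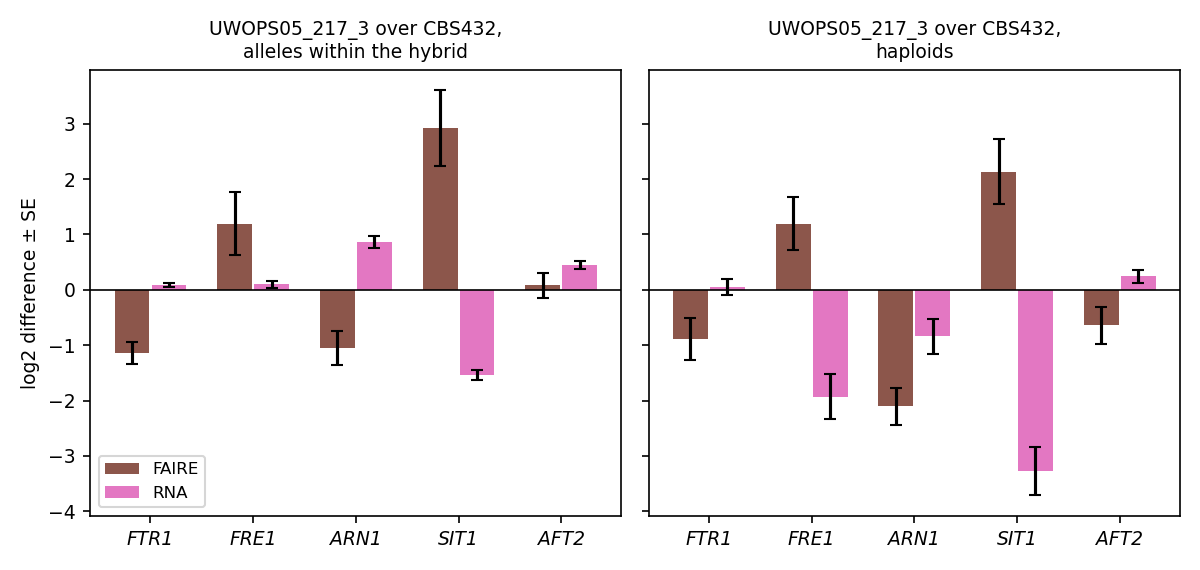
Log2 differences ± SE of UWOPS05_217_3 over CBS432 for FAIRE (brown) and RNA (pink) in the 5 genes with both, between alleles of the hybrid on the left and between haploids on the right. SIT1 has a positive FAIRE bar and a negative RNA bar in both panels, and ARN1 has a negative FAIRE bar in both with a positive RNA bar only in the hybrid.

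Other genes of iron metabolism were read from 4 lists by role, 48 genes of which 41 were in the RNA tables. The first list, called uptake here, held 14 further genes, mostly of surface and vacuolar uptake. It also held genes of other roles, namely the copper transporter CCC2, ATX1, MRS3, MRS4 and the haem oxygenase HMX1. Of the 14, 6 were lower, CCC2 and ATX1 among them, and 1 was higher in UWOPS05_217_3 than in CBS432 haploids. The median log2 difference was -0.23, and among all genes 26.4% were lower and 28.2% higher. Of 9 genes of iron sensing and storage 2 were lower and 1 was higher, of 8 genes of mitochondrial iron-sulfur cluster assembly 2 were lower and 3 were higher, and of 10 iron-using enzymes 2 were lower and 2 were higher. Among alleles of the hybrid, the counts of lower and higher were 4 and 6 for uptake, 3 and 2 for sensing and storage, 3 and 4 for cluster assembly and 5 and 5 for iron-using enzymes, where 36.7% of all genes were lower and 31.8% higher.

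FET4, which encodes a low-affinity iron transporter outside the high-affinity complex, was higher in UWOPS05_217_3 haploids (log2 difference 2.19 ± 0.32 SE) and from the UWOPS05_217_3 allele (3.53 ± 0.14 SE), with a trans effect of -1.39 ± 0.21 SE. The surface reductases FRE4 and FRE3, like FRE1, were lower in UWOPS05_217_3 haploids. FRE4 had a log2 difference of -2.76 ± 0.55 SE in haploids, and its CBS432 allele was lower in the hybrid than in CBS432 haploids (-2.38 ± 0.58 SE), with a trans effect of -3.01 ± 0.39 SE. FRE3 had -1.75 ± 0.26 SE, -1.33 ± 0.24 SE and -1.40 ± 0.21 SE in the same 3 comparisons, and FRE6, which encodes a vacuolar reductase, was lower from the CBS432 allele in the hybrid than in haploids (-1.001 ± 0.11 SE). All of these passed the threshold in edgeR. FRE2 (-0.15 ± 0.16 SE) and FRE5 (-0.05 ± 0.12 SE), of the same list, did not pass between haploids or as trans effects. FRE6 was lower in UWOPS05_217_3 haploids (-0.41 ± 0.10 SE). Between alleles of the hybrid, FRE4 (0.53 ± 0.12 SE) and FRE6 (0.66 ± 0.09 SE) were higher from the UWOPS05_217_3 allele. FRE3 was lower from it (-0.27 ± 0.10 SE), and these allele differences passed in edgeR. In CBS432 haploids FRE4 had 74.4 and 292 CPM and FRE3 had 119 and 224 CPM, again with replicate 2 the higher library, whereas FRE6 had 132 and 136 CPM. In a refit without that library, chosen after seeing the data, FRE4 had a log2 difference of -1.44 ± 0.19 SE in haploids (adjusted p = 1.47e-07 in edgeR) and -1.06 ± 0.39 SE for its CBS432 allele between hybrid and haploid, which no longer passed (adjusted p = 0.212). FRE3 had -1.21 ± 0.14 SE and -0.80 ± 0.12 SE in those comparisons and passed in both (adjusted p = 2.88e-08 and 0.00806). The FRE genes resemble each other in sequence, as do the ARN and FIT genes, and how reads shared by such copies were assigned is not given in the sources used here.

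Trans effects past the threshold were all negative for uptake (4 of 14 genes), sensing and storage (1 of 9) and cluster assembly (2 of 8). Of 10 iron-using enzymes, 5 had a positive and 1 a negative effect. Among all genes 10.6% had a negative and 15.3% a positive effect, and differences between the lists were not tested. The largest positive ones were SDH2 (log2 value 0.57 ± 0.10 SE) and SDH4 (0.49 ± 0.10 SE), subunits of succinate dehydrogenase, and HEM15 (0.44 ± 0.11 SE), the ferrochelatase that inserts iron into haem. Without hybrid replicate 2, SDH4 (0.46, adjusted p = 0.0586 in edgeR) and HEM15 (0.36, adjusted p = 0.120) did not pass, and 1 iron-using enzyme had a positive effect (3 without hybrid replicate 1). In uptake, sensing and cluster assembly, 0 genes had a positive effect in edgeR or DESeq2, and 1, 1 and 0 did at an unadjusted p under 0.05 in edgeR. The signs did not hold in all fits that left out a library. Positive effects appeared in sensing and storage without any single haploid library, and in uptake without replicate 2 of either haploid. Without either hybrid library, the negative effect in sensing and storage was not called. Such fits leave 1 library in a group. Elsewhere, YAH1, the mitochondrial ferredoxin, was lower in UWOPS05_217_3 haploids (-1.33 ± 0.11 SE) and from its allele (-0.81 ± 0.07 SE), and GRX5, a glutaredoxin of cluster assembly, was higher in both (0.66 ± 0.10 SE and 0.94 ± 0.09 SE). SDH2 was also higher in UWOPS05_217_3 haploids (0.78 ± 0.12 SE). From the UWOPS05_217_3 allele of the hybrid, the cluster scaffold gene ISU1 was higher (0.74 ± 0.06 SE), and SDH3, another succinate dehydrogenase subunit (-0.90 ± 0.06 SE), and YAP5, an activator at high iron (-0.66 ± 0.24 SE), were lower.

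The UWOPS05_217_3 alleles of ISU1 (0.54 ± 0.09 SE), YAH1 (0.45 ± 0.12 SE) and ACO1, which encodes aconitase (0.42 ± 0.10 SE), were higher in the hybrid than in haploids. Those of HMX1, the haem oxygenase (-0.63 ± 0.09 SE), SDH2 (-0.50 ± 0.11 SE) and SMF3, a vacuolar iron exporter (-0.43 ± 0.12 SE), were lower. Of these, 4 did not pass in edgeR without some of the 4 libraries. Without hybrid replicate 1 the adjusted p was 0.124 for YAH1, 0.0823 for ACO1, 0.118 for SDH2 and 0.218 for SMF3. ACO1 also did not pass without hybrid replicate 2 (0.161) or haploid replicate 2 (0.0584), SMF3 without haploid replicate 2 (0.147), and YAH1 and SDH2 without haploid replicate 1 (0.0774 and 0.0553). For the UWOPS05_217_3 alleles, the counts of lower and higher in the hybrid were 2 and 0 for uptake, 0 and 1 for sensing and storage, 0 and 2 for cluster assembly and 1 and 2 for iron-using enzymes, where 11.3% of all genes were lower and 11.4% higher. Of the counts of 0, uptake had 2 higher genes at an unadjusted p under 0.05 in edgeR and 0 in DESeq2, and the other 2 lists had 0 by both. For the CBS432 alleles, 3 uptake genes, FRE3, FRE4 and FRE6, were lower, where 4.99% of all genes were. That count moved in some of the fits that left out 1 library. None of the 41 was higher, in edgeR at an unadjusted p under 0.05 or in DESeq2, which is near the 2.32% of all genes called higher. In the other 3 lists none was lower in edgeR, with 1 iron-using enzyme at an unadjusted p under 0.05 and 1 in DESeq2.

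The mean profile of the 7 genes over the 4 haploid libraries and 4 hybrid allele columns was highest in CBS432 replicate 2, with CBS432 replicate 1 next (0.39 above the mean on the log2 scale). It was lowest for the UWOPS05_217_3 allele in hybrid replicate 1 (-0.71). Of the 7 genes, FIT2 (r = 0.974), FRE1 (r = 0.970) and SIT1 (r = 0.880) lay closest to that profile by Pearson's correlation over 8 columns, and AFT2 ran against it (r = -0.52). Each of the 7 genes is part of that mean, and genes with wide swings weigh most in it. The order of the 7 genes was thus partly built in. Among all other genes averaging 100 counts or more, the nearest were COX5A (r = 0.990), a subunit of cytochrome c oxidase, CCC2 (r = 0.971), the copper transporter that loads Fet3 with copper, and ERG1 (r = 0.961), squalene epoxidase of sterol synthesis. The 8 columns share strains and, for the alleles of a hybrid, libraries, so these values only describe likeness.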

How the data were processed

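FAIRE libraries of all 10 FAIRE samples, and RNA libraries of UWOPS05_217_3, CBS432 and their hybrid, were used as deposited. Per the study's methods, the authors mapped reads with BWA, for hybrids to both parental genomes together, and summed raw counts per NFR or gene, leaving out sites called as indels. The values the authors deposited are raw counts, not normalized. The RNA tables of the DBVPG1373 cross were not used, because 1890 of 5066 genes (37.3%) had the same value in all 7 tables compared, including 4 of 7 iron genes. Tests were edgeR 4.0.16 quasi-likelihood fits (R 4.3.3) over all features. Haploids, and hybrid against haploid, were scaled by TMM. Alleles were fitted with the library as a block, and trans effects as an interaction of species and hybrid, with haploids paired by replicate number as in the study. RNA genes needed a mean count of 10. The alternatives were DESeq2 1.42.0, other scaling, a replicate block, count filters, thresholds, windows and left-out libraries. In simulated counts where 200 features differed by 1.5 on the log2 scale, the fits found between 98% and 100% of them in RNA and between 40% and 77% in FAIRE counts. The simulation took its spread from the trend over all features, so these shares need not hold for less repeatable genes such as FIT2. Other plots and tables used Python 3.11.15. Members and gene lists were chosen with earlier results of these data known. Named genes are all members, up to 3 listed iron genes per direction and RNA comparison with the largest called difference of 1 sign in every pairing of libraries, and the 3 nearest profiles. Promoter motifs were not analysed here.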

Additional observations from a re-analysis of the deposited data

Results flagged for a closer look

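FRE1, ARN1 and SIT1 RNA differed between UWOPS05_217_3 and CBS432 to another degree in haploids than in the hybrid, by the interaction test in edgeR. The interaction value, which need not equal the difference of the separately fitted ratios, was -1.80 for FRE1, -1.58 for ARN1 and -1.57 for SIT1. In haploids, CBS432 replicate 2 was the highest library for all 3 genes, and without it the values were -0.97, -1.12 and -1.06. Groups of 2 libraries are too small for a test of single outlying libraries.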

How the results depend on the processing

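Counts of called iron genes that moved by over 1.5 times were these. In the RNA comparison of the UWOPS05_217_3 allele between hybrid and haploid (1 called), 2 were called with total counts, 5 with a replicate block, 0 at a threshold of 0.01, and 1 to 2 without 1 library. For the CBS432 allele (3 called), 1 was called in DESeq2, 1 with total counts, 0 at 0.01, and 0 to 4 without 1 library. RNA trans effects (3 called) numbered 3 to 7 without 1 library, where dropping a haploid leaves 1 pair whose spread is taken from the hybrid. In FAIRE, UWOPS05_217_3 against CBS432 haploids (2 called) gave 6 with a replicate block, 1 when NFRs had to average 100 counts, 1 at 0.01 and 1 to 4 without 1 library. DBVPG1373 against CBS432 haploids (2 called) gave 4 with the block, 0 at 0.01 and 0 to 4 without 1 library. Alleles in the DBVPG1373-CBS432 hybrid (4 called) gave 1 at 0.01, and trans effects in the UWOPS05_217_3 cross (0 called) 0 to 1 without 1 library. The labels do not say that replicate numbers pair cultures, and with 2 pairs this could not be settled. Deviations of same-numbered RNA columns correlated between 0.14 and 0.38, the highest being the alleles of 1 hybrid. In FAIRE they correlated between -0.20 and 0.50, leaving aside CBS432 libraries counted at both sets of sites. The highest there was between UWOPS05_217_3 and DBVPG1373 haploids, against 0.17 for the alleles of either hybrid. With the block, edgeR called FET3, FTR1, FIT2, ARN1 and SIT1 on the UWOPS05_217_3 allele, with ARN1 (0.38) and SIT1 (0.62) higher in the hybrid and FET3 (-0.27) and FTR1 (-0.20) lower. It added ARN1 (-0.73) and AFT2 (0.24) to the RNA calls between haploids and SIT1 (-1.02) to those on the CBS432 allele. In FAIRE it added FTR1 (-0.94), FRE1 (1.26), AFT2 (-0.65) and CTH2 in UWOPS05_217_3 against CBS432 haploids, and FTR1 (-1.06) and FIT3 (1.59) in DBVPG1373 against CBS432 haploids. RNA trans effects without the block in the haploids numbered 2, with SIT1 (-1.72) not passing (adjusted p = 0.0547).

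The log2 values that changed sign belonged to genes not called in the fits reported. Without 1 library, RNA values ranged between -0.17 and 0.30 for FTR1 in haploids, -0.12 and 0.31 for FRE1 alleles, -0.15 and 0.60 for FET3 and -0.25 and 0.25 for FTR1 trans effects. For hybrid against haploid they ranged between -0.37 and 0.17 for FRE1, -0.0013 and 0.75 for ARN1 and -0.011 and 1.18 for SIT1 on the UWOPS05_217_3 allele, and between -0.18 and 0.015 for AFT2 and -0.37 and 0.13 for FET3 on the CBS432 allele. FAIRE values ranged between -0.36 and 1.11 for FIT3 in UWOPS05_217_3 against CBS432 haploids and between -0.079 and 0.25 for AFT2 alleles in that cross, which TMM scaling put at -0.0053. No cause was tested. Leaving out a hybrid library leaves 1 for the allele test, which then has a value and no test.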
